A study of Mus musculus with 6 samples.

Results

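The sterol regulatory element-binding proteins (SREBPs) are transcription factors of lipid synthesis. Bound to their escort protein Scap, they are held in the endoplasmic reticulum by the retention proteins Insig1 and Insig2. They are released in the Golgi by the proteases encoded by Mbtps1 and Mbtps2. The 8 genes described here were taken by symbol: the factors Srebf1 and Srebf2, Scap, Insig1, Insig2, Mbtps1, Mbtps2 and Stard4, which encodes a cytosolic sterol carrier. All 8 were found among the 24421 genes of the table, and all 8 had enough counts to be tested. Of them, Insig1, Stard4 and Srebf2 were called higher in libraries labelled doxycycline, beside 0.925% of all tested genes. The other 5 did not pass the threshold, an adjusted p under 0.05 in a quasi-likelihood test by edgeR over all tested genes. The call of Srebf2 was lost in 6 of 15 alternative fits.

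The cells were 4T1-tetL1(GLucAI), a line derived from 4T1 mouse breast carcinoma cells of BALB/cfC3H background. Both groups carry a PiggyBac-integrated cassette, maintained as a blasticidin-selected population, in which a bidirectional tetracycline-inducible promoter (TRE3G-BI) drives firefly luciferase and a recoded mouse LINE-1 (L1), and an EF1α promoter drives the Tet-On 3G activator. The 3 untreated libraries, whose treatment tag reads vehicle, were set against 3 libraries of cells kept for 48 h in 400 ng/mL doxycycline. No group with doxycycline and no L1 cassette was analysed here, so effects of the drug and of L1 cannot be told apart. The L1 transcript of the cassette, which would check the labels, was not analysed here, and every direction rests on the labels.

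Library totals ran from 31653464 to 43631312 counts, and the ranges of the groups overlapped. The 8 genes had between 1492 and 10829 counts in a library, for which counting error alone gives a coefficient of variation of 2.59% and 0.961%. The keratin genes Krt8, Krt18 and Krt7 and the cadherin gene Cdh1, which mark epithelial cells, had group means from 309 to 641 CPM, the read counts per 1000000 counted reads. The remaining epithelial markers had lower means, in untreated libraries and those labelled doxycycline. Krt19 had 63.5 and 51.4 CPM, and Epcam had 33.2 and 36.3 CPM. Of 15 markers of fibroblasts, leukocytes, endothelial cells, adipocytes and hepatocytes, 13 had group means under 1 CPM, and Col3a1 and Apoa1 had 0 counts in all libraries. The exceptions were Cd68 (9.90 and 9.52 CPM) and Pdgfra (36.7 and 27.8 CPM). The summed fibroblast markers ran from 35.7 to 38.7 CPM in untreated libraries and from 27.9 to 29.6 CPM in those labelled doxycycline. Nearly all of this sum came from Pdgfra, since the other 3 of the 4 fibroblast markers had group means under 1 CPM. Pdgfra (log2 fold change, here called log2 difference, of -0.40, edgeR adjusted p 0.000952) and the keratin gene Krt19 (-0.31, edgeR adjusted p 0.0078) were lower in libraries labelled doxycycline, and the part of these markers in the results below was not tested. In bulk RNA, fewer cells of a type and less RNA per cell cannot be told apart.

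When sterol in the endoplasmic reticulum membrane is low, Scap carries the SREBPs to the Golgi. Site-1 protease (Mbtps1) and then site-2 protease (Mbtps2) cut them, and the freed part enters the nucleus. SREBP-2, from Srebf2, mainly drives cholesterol synthesis and uptake, and SREBP-1, from Srebf1, mainly fatty acid synthesis. Insig1 and Srebf2 are themselves known targets of this pathway, which therefore feeds back on its own parts.

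The promoters of Insig1 and Srebf2, the pair of regulatory genes that were higher, are shown because both genes are known to answer to the factors they control. The sequences are the 250 bases upstream of the RefSeq transcript start (GRCm38.p6), on the plus strand in both cases. Capitals mark matches, on either strand, to the letters of a sterol regulatory element in its short form, TCACNCCA, or to 3 other motifs. These are the E-box with the letters CACGTG, the CCAAT box and the GC box with the letters GGGCGG. The Insig1 window is chr5:28071162-28071411 and the Srebf2 window is chr15:82147019-82147268.
Insig1: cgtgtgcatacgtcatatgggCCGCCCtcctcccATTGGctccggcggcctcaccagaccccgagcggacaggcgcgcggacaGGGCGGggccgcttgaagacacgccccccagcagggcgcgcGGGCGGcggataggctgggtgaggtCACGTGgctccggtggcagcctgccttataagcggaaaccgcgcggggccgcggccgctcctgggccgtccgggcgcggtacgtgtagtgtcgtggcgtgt
Srebf2: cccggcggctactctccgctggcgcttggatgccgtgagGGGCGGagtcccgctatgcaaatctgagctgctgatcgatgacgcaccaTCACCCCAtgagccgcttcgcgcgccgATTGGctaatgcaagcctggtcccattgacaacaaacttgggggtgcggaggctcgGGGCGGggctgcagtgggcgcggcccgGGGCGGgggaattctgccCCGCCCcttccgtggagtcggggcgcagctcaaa

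The Srebf2 window held TCACCCCA, which began 162 bases before the start, and a CCAAT box, read on the other strand, that began 135 bases before it. The Insig1 window held an E-box that began 101 bases before the start, and no match to TCACNCCA. Of 32851 RefSeq windows of the same length, 3.67% held TCACNCCA, 6.02% held CACGTG, 33.8% held CCAAT and 32.7% held GGGCGG. The longer form TCACNCCAC, which contains the shorter one, was in 1.05% of windows and in no window of the genes searched here. Among the other genes, Scap had an E-box in 1 of 2 windows. Srebf1, Insig2, Mbtps1 and Mbtps2 held neither TCACNCCA nor CACGTG in 3, 3, 1 and 1 windows, and no window was matched for Stard4. These are matches of letters and no measure of binding.

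Srebf2 also hosts the microRNA miR-33, known to act on cholesterol export genes, whose mature forms are shown because they share the transcript of a gene that was higher. They lie at chr15:82198127-82198147 and chr15:82198167-82198188 (GRCm38.p6, plus strand), and capitals mark the seed, bases 2 to 8.
miR-33-5p: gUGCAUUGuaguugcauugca
miR-33-3p: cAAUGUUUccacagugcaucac
The Mir33 entry had 0 counts in all 6 libraries, where 3 counts correspond to 0.0683 to 0.0944 CPM. Libraries of fragmented total RNA are not made to measure mature microRNAs, so the level of miR-33 was not measured.

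The question asked of each gene was whether its level in libraries labelled doxycycline differed from that in untreated libraries. Srebf2 (chromosome 15, 82147269 to 82205379, plus strand) stood at 164, 161 and 162 CPM in untreated replicates 1 to 3. It stood at 174, 196 and 184 CPM in libraries labelled doxycycline, all 3 above every untreated library. The means were 163 ± 1.52 and 185 ± 11.1 CPM (SD, n = 3 each), which is a log2 difference of 0.18 (SE 0.049, edgeR adjusted p 0.0399), or 13.6% more. This call was lost in 4 of the 6 fits that each left out 1 library, namely without untreated replicates 1, 2 and 3 (edgeR adjusted p 0.138, 0.168 and 0.211) and without doxycycline replicate 3 (edgeR adjusted p 0.134). It was also lost with library size scaling (edgeR adjusted p 0.0554) and with the replicate number as a block (edgeR adjusted p 0.0504), while the log2 difference stayed between 0.14 and 0.22 in the 15 alternatives.

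Srebf1 (chromosome 11, 60199084 to 60224186, minus strand), which gives rise to both SREBP-1a and SREBP-1c, did not differ detectably. Its values were 87.5, 85.2 and 81.6 CPM in untreated libraries, against 79.0, 87.8 and 87.8 CPM in those labelled doxycycline, so the groups overlapped. The log2 difference was 0.0026 with a 95% interval from -0.11 to 0.12 (edgeR adjusted p 0.987), and its sign turned in 7 of the 15 alternatives. Counts per gene do not separate its isoforms. Its GENCODE span shares 109 bases with that of Rai1 on the opposite strand, and the strand setting of the counting is not given in the sources used here.

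The ratio of Srebf2 to Srebf1 counts within a library does not depend on scaling between libraries. It was 1.88, 1.89 and 1.99 in untreated libraries, against 2.20, 2.23 and 2.10 in those labelled doxycycline, with no overlap. The difference of the mean log2 ratios was 0.18 (exact permutation test, two-sided, p = 0.1), and 0.1 is the smallest p that 3 against 3 libraries allow.

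Scap (chromosome 9, 110333288 to 110384949, plus strand), the sterol-sensing escort, had 91.4, 94.6 and 92.1 CPM in untreated libraries. In libraries labelled doxycycline it had 89.2, 111 and 100 CPM, so replicate 1 lay below every untreated library and the others above. The spread among them (SD 10.9 CPM) was wider than among untreated libraries (SD 1.72 CPM). The log2 difference of 0.11 had a 95% interval from -0.017 to 0.24 (edgeR adjusted p 0.393). Leaving out doxycycline replicate 2 gave 0.031 and leaving out doxycycline replicate 1 gave 0.19, without a call in either fit.

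Insig1 (chromosome 5, 28071412 to 28078662, plus strand) was the member with the smallest p, at rank 24 of 13084 tested genes. It had 127, 128 and 133 CPM in untreated libraries, against 172, 168 and 167 CPM in those labelled doxycycline. The gap between the groups was wider than the range within either. The means were 129 ± 3.09 and 169 ± 2.89 CPM (SD, n = 3 each), which is a log2 difference of 0.39 (SE 0.045, 95% interval 0.29 to 0.48, edgeR adjusted p 1.76e-05), or 30.6% more. The call held in all 15 alternatives, with log2 differences from 0.37 to 0.40.

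Insig2 (chromosome 1, 121304353 to 121332662, minus strand), the other retention protein, was the only one of the 8 genes with a negative log2 difference. Its values were 51.8, 52.1 and 52.7 CPM in untreated libraries, against 46.9, 46.4 and 48.3 CPM in those labelled doxycycline. The groups did not overlap, but the change of -0.15 (SE 0.057, 95% interval -0.26 to -0.027) did not pass the threshold over all genes (unadjusted p 0.0184, edgeR adjusted p 0.195). It was called in 0 of the 15 alternatives, with log2 differences from -0.16 to -0.12.

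The ratio of Insig1 to Insig2 counts was 2.46, 2.46 and 2.52 in untreated libraries. It was 3.67, 3.62 and 3.46 in libraries labelled doxycycline, each above every untreated library. The mean log2 ratios differed by 0.53 (exact permutation test, two-sided, p = 0.1, the smallest this design allows), and by 0.51 to 0.56 when 1 library was left out.

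**Figure D1:**
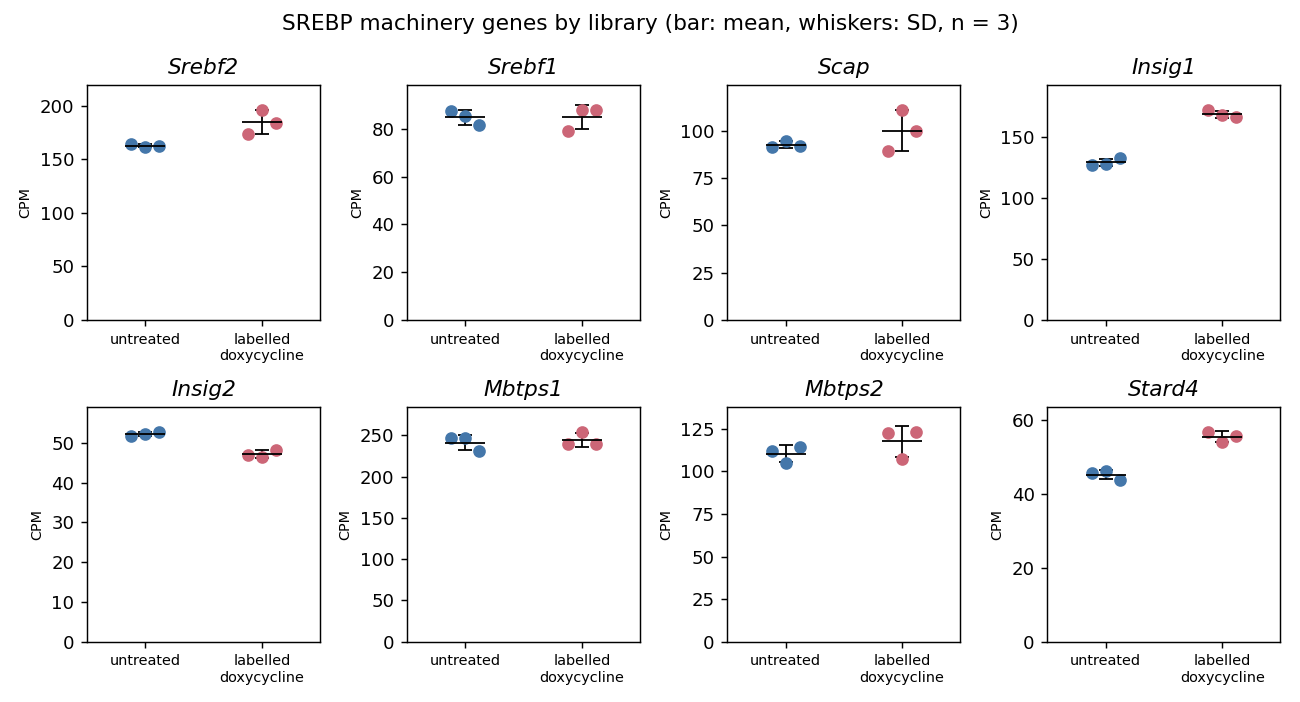
Levels of the 8 genes in CPM (vertical axes, starting at 0), with 1 point per library, bars at the group means and whiskers of 1 SD (n = 3). Groups do not overlap for Insig1 (127 to 133 against 167 to 172 CPM), Stard4, Srebf2 and Insig2, the last being lower in libraries labelled doxycycline.

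Neither protease gene passed the threshold. Mbtps1 (chromosome 8, 119508151 to 119558864, minus strand) had 247, 246 and 231 CPM in untreated libraries, against 239, 254 and 239 CPM in those labelled doxycycline. The groups overlapped, with a log2 difference of 0.017 and a 95% interval from -0.080 to 0.11 (edgeR adjusted p 0.899). Mbtps2 (chromosome X, 157547822 to 157598715, minus strand) had 112, 105 and 114 CPM in untreated libraries, against 123, 107 and 123 CPM in those labelled doxycycline. Doxycycline replicate 2 fell among the untreated libraries and the other 2 above them, with a log2 difference of 0.091 (95% interval -0.027 to 0.21, edgeR adjusted p 0.452). Without doxycycline replicate 2 Mbtps2 was called higher by 0.15 (edgeR adjusted p 0.0314).

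Yy2, whose span lies within that of Mbtps2 on the same strand, had 581 to 768 counts in a library, where 3499 to 4922 were counted for Mbtps2. How reads shared by both genes were counted is not given in the sources used here. The ratio of Mbtps1 to Mbtps2 counts was 2.20, 2.35 and 2.01 in untreated libraries, against 1.95, 2.37 and 1.94 in those labelled doxycycline, with overlap. The mean log2 ratios differed by -0.073 (exact permutation test, two-sided, p = 0.6).

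Stard4 (chromosome 18, 33199138 to 33213862, minus strand) encodes a protein that moves sterol between membranes and is a known SREBP target. It had 45.7, 46.3 and 43.9 CPM in untreated libraries, against 56.9, 54.1 and 55.9 CPM in those labelled doxycycline, and the groups did not overlap. The means were 45.3 ± 1.21 and 55.6 ± 1.42 CPM (SD, n = 3 each), which is a log2 difference of 0.30 (SE 0.058, 95% interval 0.18 to 0.42, edgeR adjusted p 0.00455), or 22.8% more. The call was lost without untreated replicate 3 (edgeR adjusted p 0.0581) and held in the other 14 alternatives.

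**Figure D2:**
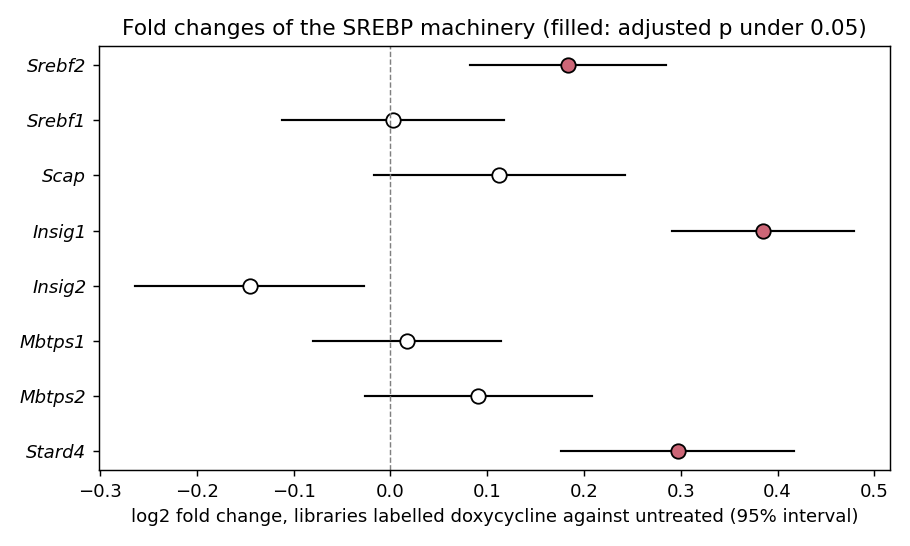
Log2 difference of each of the 8 genes, libraries labelled doxycycline against untreated (horizontal axis), with 95% intervals as lines and filled points where the edgeR adjusted p is under the threshold. Insig1 (0.39), Stard4 (0.30) and Srebf2 (0.18) are filled, and the interval of Insig2 lies below 0 without a call.

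Counted together, 3 of the 8 genes were called higher and 0 lower, where 0.925% of the 13084 tested genes were called higher, 2.16% lower and 3.09% in either direction. Without untreated replicate 3 the count was 1, Insig1 alone. By the DESeq2 Wald test it was 3 higher and 0 lower. In edgeR 4 of the 8 genes had an unadjusted p under 0.05, as had 2119 of the 13084 tested genes. The median log2 difference of the 8 genes was 0.10, beside 0.0025 over all tested genes. Groups did not overlap for 4 of the 8 genes, and for 21.3% of all tested genes. The genes were chosen with earlier results of these libraries known, so these counts are a description.

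**Figure D3:**
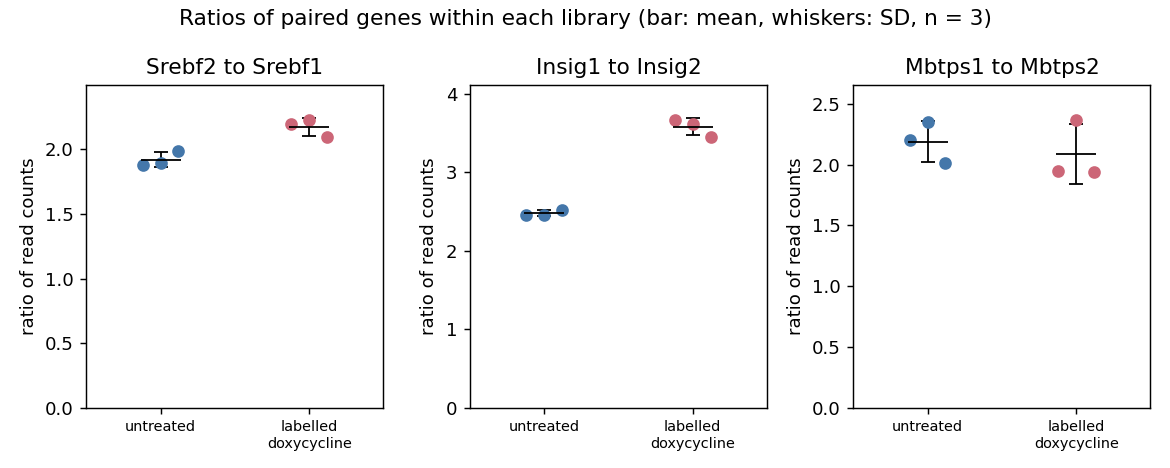
Ratios of read counts within each library for 3 gene pairs (vertical axes, starting at 0), with 1 point per library, bars at the means and whiskers of 1 SD (n = 3). The groups are apart for Srebf2 to Srebf1 (at most 1.99 against at least 2.10) and Insig1 to Insig2 (at most 2.52 against at least 3.46), and overlap for Mbtps1 to Mbtps2.

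Levels of different genes were compared only as CPM per kilobase of the longest RefSeq-matched GENCODE transcript. In untreated libraries the order from the highest was Mbtps1 (55.6 CPM per kilobase), Insig1 (48.0), Srebf2 (32.01), Mbtps2 (23.0), Scap (21.9), Srebf1 (19.7), Insig2 (19.4) and Stard4 (8.88). Neighbours in this order did not overlap among the 3 untreated libraries except Mbtps2 with Scap and Srebf1 with Insig2. In libraries labelled doxycycline Insig1 stood at 62.7 ± 1.07 CPM per kilobase and Mbtps1 at 56.3 ± 2.002 (SD, n = 3 each), so that Insig1 came first. The sterol carrier Stard4 was lowest in both groups, at 8.88 ± 0.237 and 10.9 ± 0.278 CPM per kilobase.

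Likeness of pattern was measured by Pearson's r of log2 CPM over the 6 libraries, among 8782 tested genes with a mean of at least 10 CPM. The 6 libraries form 2 groups, so for genes whose groups do not overlap r mostly reflects the difference between the groups. For Srebf1, Scap, Mbtps1 and Mbtps2, whose groups overlapped, it also reflects differences among libraries of the same group. In both cases r is a description. Among the genes most like Insig1 were Socs7 (r 0.995) and E2f8 (0.991). Most like Stard4 were Ankrd26 (0.998), Utp14a (0.998) and Ap3s2 (0.995), and among those most like Srebf2 were Ftsj3 (0.996) and Arhgap27 (0.993). Insig2 was near Rnd3 (0.999) and Filip1l (0.995). Scap was nearest to Eif2b4 (0.996), Srebf1 to Ap2a2 (0.987), Mbtps1 to Mrps27 (0.988) and Mbtps2 to Fam60a (0.978). Among the 8 genes r was 0.964 between Insig1 and Stard4 and -0.959 between Insig1 and Insig2.

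The sterol synthesis enzymes, the main targets of SREBP-2, give the setting of these changes. Of 20 tested enzymes, 17 were called higher and 0 lower, beside 0.925% and 2.16% of all tested genes. The median log2 difference of the 20 enzymes was 0.47. Fdps, which makes farnesyl diphosphate, was higher by 0.67 (edgeR adjusted p 3.27e-08) and the lanosterol-forming cyclase Lss by 0.53. The synthase Hmgcs1 was higher by 0.54. Dhcr7 (0.18), Tm7sf2 (0.15) and Ebp (0.050) did not pass the threshold. Beside these values stand 0.39 for Insig1, 0.30 for Stard4 and 0.18 for Srebf2, and the differences between genes in fold change were not tested.

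Of 16 tested fatty acid synthesis genes, the main targets of SREBP-1, 9 were called higher and 0 lower. Over all tested genes the shares were 0.925% and 2.16%. The median log2 difference of the 16 genes was 0.26, while Srebf1 itself stood at 0.0026. The desaturase genes Scd1 (0.44, edgeR adjusted p 3.07e-05) and Fads2 (0.30) were among the 9 genes called higher. So were the phosphatidate phosphatase gene Lpin1 (0.42) and the citrate lyase gene Acly (0.28). Both lists were chosen with earlier results of these libraries known.

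Genes of cholesterol uptake and intracellular transfer did not move together. Of 27 tested, 2 were called higher, 1 lower and 24 neither, with a median log2 difference of -0.046. Over all tested genes 0.925% were called higher and 2.16% lower. Lrp8, a lipoprotein receptor gene, was higher by 0.28 (SE 0.046, edgeR adjusted p 0.000939).

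Lipa, the lysosomal acid lipase that frees cholesterol from lipoprotein esters, was the gene of this list called lower. It had 22.8, 23.0 and 20.9 CPM in untreated libraries, against 15.6, 18.1 and 15.6 CPM in those labelled doxycycline (log2 difference -0.43, SE 0.087, edgeR adjusted p 0.00592). The groups did not overlap, and the call did not hold when doxycycline replicate 3 was left out (edgeR adjusted p 0.0502).

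Of 29 tested genes of SREBP processing, export from the endoplasmic reticulum and turnover, 0 were called by edgeR and 0 by DESeq2. In all, edgeR called 3.09% of 13084 tested genes and DESeq2 2.77% of 17661, so 0 of 29 is near the general share. An unadjusted p under 0.05 was found in edgeR for 3 of the 29 genes, and for 2119 of the 13084 tested genes. The median log2 difference of the 29 genes was -0.0091. Vcp, the ATPase that extracts proteins from the endoplasmic reticulum, had 458 ± 18.3 and 499 ± 17.0 CPM (SD, n = 3 each, log2 difference 0.12, edgeR adjusted p 0.169). Usp7, a deubiquitinase, stood at 0.059 (edgeR adjusted p 0.531).

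The liver X receptors (LXR) sense oxysterols and are known to drive Srebf1 and cholesterol export genes. Of 8 tested LXR factors and targets, 0 were called by edgeR and 0 by DESeq2. These tests called 3.09% of 13084 and 2.77% of 17661 tested genes, so 0 of 8 is near the general share. The list had a median log2 difference of -0.063. In edgeR 1 of its genes had an unadjusted p under 0.05, as had 2119 of the 13084 tested genes. The values of these 8 genes ran from -0.41 to 0.12, with 5 below 0 and 3 above. The gene of the list with an unadjusted p under 0.05 was the cholesterol export gene Abca1, named after its value was seen. It stood at -0.38 (edgeR adjusted p 0.26) with groups that did not overlap. Lpcat3, a phospholipid enzyme gene, stood at 0.12 (edgeR adjusted p 0.329) and Rxra, which encodes the partner receptor, at 0.030 (edgeR adjusted p 0.886). Without doxycycline replicate 2, 1 gene of the list was called lower.

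In the family of StAR-related lipid transfer genes, 2 of 10 tested members were called higher, Stard4 and Star, and 0 lower. Their median log2 difference over the 10 was 0.063. The shares over all tested genes were 0.925% higher and 2.16% lower. Star, which carries cholesterol to mitochondria, had 9.15, 10.1 and 8.97 CPM in untreated libraries. It had 13.1, 13.5 and 12.1 CPM in libraries labelled doxycycline, without overlap (log2 difference 0.46, SE 0.10, edgeR adjusted p 0.0134). The call was lost without untreated replicate 1 or 3 (edgeR adjusted p 0.0834 and 0.1055). Stard7 (0.0050, edgeR adjusted p 0.977) and Stard13 (0.050, edgeR adjusted p 0.787) were not called.

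**Figure D4:**
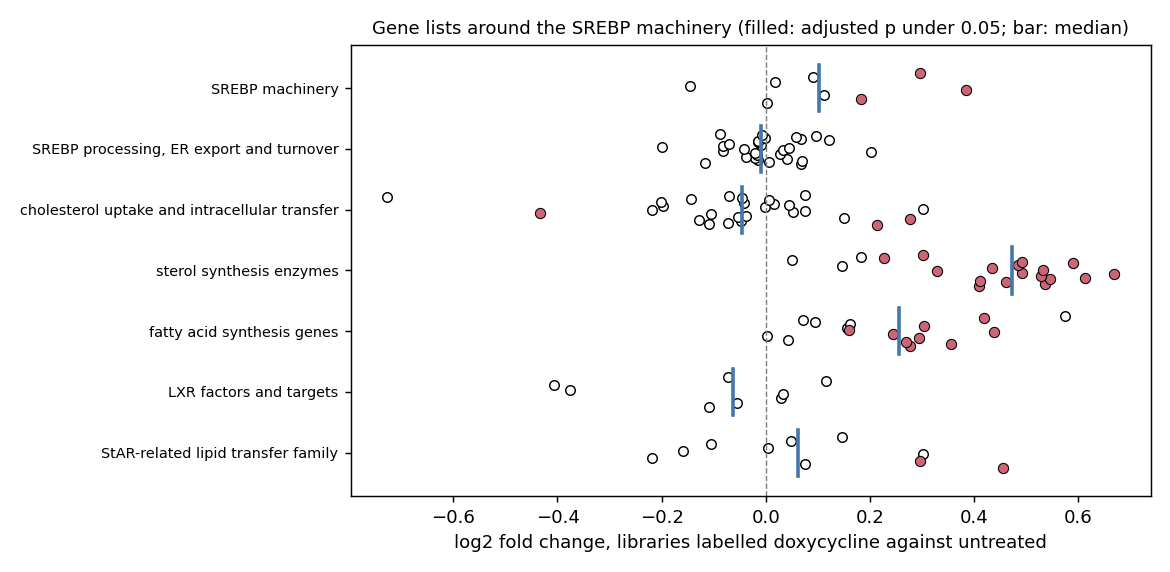
Log2 difference of every tested gene of the 8-gene group and of 6 surrounding lists (horizontal axis), 1 point per gene, filled where the edgeR adjusted p is under the threshold, with a bar at each list's median. The sterol synthesis (median 0.47) and fatty acid synthesis (0.26) lists lie to the right of 0, while the SREBP processing list (-0.0091) and the uptake list (-0.046) lie around it.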

How the data were processed

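Total RNA was depleted of ribosomal RNA, and strand-preserving libraries were sequenced. STAR (mouse build GRCm38, mm10) and featureCounts were the aligner and the counter used by the authors. The submitters' processing notes name bcl2fastq 2.20 and Subread 1.6.2. The deposited values are raw read counts per gene, with replicates kept apart. The version of STAR, the strand setting and the handling of reads with several positions are not given in the sources used here.

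Groups were taken from the sample titles, and all 6 columns were matched by library code. The test was edgeR's quasi-likelihood test (edgeR 4.0.16, R 4.3.3) with TMM scaling, a robust fit and no term but the group. It was run on the 13084 genes kept by filterByExpr, with Benjamini-Hochberg adjustment over all of them at 0.05. The study used DESeq2. SE was derived from the log2 difference and the F statistic, and 95% intervals use the degrees of freedom of the test. CPM used TMM-scaled totals of the tested genes. The study calls the 3 libraries of a group biological triplicates.

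The members and lists were chosen with earlier results of these data known. All 8 members are named. From each other list up to 4 genes past the threshold with the smallest p are named, or, where fewer than 2 pass, also the 2 with the highest mean CPM. Dhcr7, Tm7sf2 and Ebp were named after their values were seen, as the enzymes not called. For each member the rule also takes the 3 genes with the highest Pearson's r, of which 1 is given for Scap, Srebf1, Mbtps1 and Mbtps2. Some genes that the rule takes are not reported here. The motifs were chosen with the promoters in view. Promoter windows on chromosome 18, which holds Stard4, were left out of the search. Of the 8 genes the other 7 matched a RefSeq promoter (GRCm38.p6).

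Alternatives were scaling by library size only, by upper quartile or by DESeq2 size factors, a minimum of 10 counts per library or no minimum, a block for the replicate number, the Wald test of DESeq2 1.42.0, voom in limma 3.58.1, a loess correction for GC content and transcript length, and leaving out each library. The script was tested on simulated data. Replicate pairs differed by a chi-square per degree of freedom of 6.37 to 23.28, so no pair agreed within sampling noise. These counts include the ribosomal RNA entry Rn45s, at 8.83% to 12.11% of a library, and its part in these values was not tested.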

Additional observations from a re-analysis of the deposited data

How the results depend on the processing

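The count of 3 of the 8 genes called higher ran from 2 to 3 in the 9 alternatives that kept all libraries. Across the 6 fits that each left out 1 library it ran from 1 (without untreated replicate 3) to 4 (without doxycycline replicate 2), and 0 were called lower throughout. Insig1 kept its call in 15 of 15 alternatives, Stard4 in 14 and Srebf2 in 9. Values near 0 changed sign. Srebf1 stood at -0.0033 after correction for GC content and length, -0.0076 with library size only, -0.00042 without a filter and -0.0041 with upper quartile factors, and its leave-one-out values ran from -0.025 to 0.050. Leave-one-out values of Mbtps1 ran from -0.015 to 0.034. Stard7 stood at -0.0049 with library size only and -0.0019 with upper quartile factors, and from -0.026 to 0.032 when 1 library was left out. Rxra ran from -0.042 to 0.082 in those fits. The log2 ratio difference of Srebf2 to Srebf1 ran from 0.16 to 0.21 and that of Mbtps1 to Mbtps2 from -0.17 to -0.020 when 1 library was left out. The counts of 17 sterol synthesis and 9 fatty acid synthesis genes called higher stayed within 1.5 times in every alternative. Leaving out 1 library gave 1 to 3 uptake genes higher and 0 to 3 lower, 0 to 2 StAR-related genes higher, and 0 to 1 LXR genes lower. The share of all tested genes called ran from 1.21% without untreated replicate 3 to 5.71% without doxycycline replicate 2. The cause was not tested.

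With the replicate number as a block, 2 of the 8 genes were called higher, since Srebf2 missed the threshold (0.18, edgeR adjusted p 0.0504). Over all tested genes, same-numbered libraries did not deviate together from their group means (correlations -0.0399, -0.00449 and 0.0176). The share of counts from Rn45s did have the same order by number in both groups. It was 8.83%, 11.04% and 9.64% in untreated replicates 1 to 3, and 9.60%, 12.11% and 10.51% in those labelled doxycycline. Whether same-numbered libraries share a batch was not tested. No other call among the 8 genes changed with the block.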
